A study of Mus musculus with 4 samples.

Results

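Ring1B, the catalytic subunit of the Polycomb complex PRC1, was followed at the promoters of 48 genes of the Wnt pathway, chosen by gene name out of 17649 promoters. The names cover the Wnt ligands, their Frizzled, Lrp, Ror and Lgr receptors, the secreted antagonists Sfrp, Wif1 and Dkk with the Dkk receptors Kremen, the scaffold Axin and the nuclear factors Lef1 and Tcf7. They take 1650 of 462748 named probes, with 13 to 51 probes a promoter. Promoters whose probes name a pair of genes, such as Fzd3 with Fbxo16, fall outside the choice, and Lgr4 and Fzd9 were not analysed here. The cells were C57BL/6 mouse embryonic fibroblasts from day 12.5, at passage 2, either wild type or Phc2 L307R/L307R. Phc2 is a PRC1 subunit with a SAM domain that polymerises, and the study's title ties this to clustering of PRC1 and silencing. The labels name no other allele or agent in either group and do not say how many embryos or cultures were used. Ring1B immunoprecipitate (IP, Cy5) and input DNA (Cy3) were compared on 4 arrays of 2 designs with no probe in common. Each promoter thus had 1 array per genotype, so there was no replicate and no test.

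Wnt proteins are secreted signals that bind Frizzled receptors together with the co-receptors Lrp5 or Lrp6. Without a signal, a complex built on Axin marks beta-catenin for destruction; with a signal, beta-catenin accumulates and joins Lef and Tcf factors on DNA. Sfrp and Wif1 proteins catch the ligands, whereas Dkk proteins block the Lrp co-receptors, helped by Kremen. PRC1 is known to hold many developmental and signalling genes silent in cells that do not use them.

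A level is the mean log2 ratio of IP over input in 3 neighbouring probes of a promoter within 2000 bp, taken where the mean over both genotypes is highest, with the median of each array set to 0. The ± beside a level or difference is the SD over those 3 probes, a spread along the DNA and not between cultures. A promoter is called bound at a level of at least 1. It is called lower or higher where it is bound in either genotype and differs by at least 1 (2-fold) with all 3 probes on the same side. Differences are Phc2 L307R minus wild type. The breadth of a promoter is the share of its tiled probes at or above 1.

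Designs 1 and 2 held 237195 and 237185 probes. IP was well above background at 97.9% to 99.7% of probes, and input at 85.7% to 86.7% in wild type but 75.0% to 76.3% in Phc2 L307R. Of the 48 windows, 37 hold a probe with dim input in either genotype. The genotypes were scanned on different days, so genotype and scan day cannot be told apart. For wild type a second set of values exists: the value tables differ from the scanner ratios by a constant at 99.9% of Phc2 L307R probes, but in wild type they correlate with them at 0.854 and 0.890 only. Scanner values are the main ones here, and both sets use the same Phc2 L307R arrays. DNA arrays cannot check the fibroblast label by expression. In wild type, Ring1B was bound at 12 of 15 promoters of fibroblast markers and 3 of 6 of epithelial markers. It was bound at 1 of 5 of endothelial and 0 of 5 of blood markers, where 45.4% of all promoters were bound. In the wild-type value tables the counts were 15, 3, 2 and 0 in the same order, where 45.1% of all promoters were bound.

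The sequences shown are those of the members called lower in Phc2 L307R (Wif1 and Dkk1) and the member with most Ring1B (Lef1). The others are the members called higher (Fzd7 and Wnt11) and a ligand gene unbound in the scanner values (Wnt8b). Each is the 250 bases before the first listed RefSeq start in GRCm38.p6, 5′ to 3′ on the strand of the gene, with each CpG in capitals. Wif1 lies at chr10:121033754-121034003 on the plus strand. Dkk1 lies at chr19:30549497-30549746 on the minus strand. Lef1 lies at chr3:131110047-131110296 on the plus strand. Fzd7 lies at chr1:59481897-59482146 on the plus strand. Wnt11 lies at chr7:98834862-98835111 on the plus strand. Wnt8b lies at chr19:44493222-44493471 on the plus strand. No source used here gives the build of the probe positions, so probes were not placed on these bases.
Wif1: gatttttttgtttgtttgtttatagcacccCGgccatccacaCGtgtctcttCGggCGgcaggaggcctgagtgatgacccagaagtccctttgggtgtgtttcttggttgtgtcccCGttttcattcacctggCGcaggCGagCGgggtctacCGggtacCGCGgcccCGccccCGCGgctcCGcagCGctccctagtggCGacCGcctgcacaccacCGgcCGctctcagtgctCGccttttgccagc
Dkk1: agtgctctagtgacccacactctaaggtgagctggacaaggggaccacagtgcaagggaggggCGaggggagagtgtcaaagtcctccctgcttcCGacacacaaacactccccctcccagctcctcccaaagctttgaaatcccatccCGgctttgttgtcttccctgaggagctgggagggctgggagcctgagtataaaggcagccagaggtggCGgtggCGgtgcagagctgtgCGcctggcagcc
Lef1: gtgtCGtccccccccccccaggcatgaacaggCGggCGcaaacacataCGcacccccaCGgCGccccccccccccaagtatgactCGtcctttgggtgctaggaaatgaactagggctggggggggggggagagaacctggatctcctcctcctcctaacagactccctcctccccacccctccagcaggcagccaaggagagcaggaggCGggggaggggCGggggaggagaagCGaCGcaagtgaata
Fzd7: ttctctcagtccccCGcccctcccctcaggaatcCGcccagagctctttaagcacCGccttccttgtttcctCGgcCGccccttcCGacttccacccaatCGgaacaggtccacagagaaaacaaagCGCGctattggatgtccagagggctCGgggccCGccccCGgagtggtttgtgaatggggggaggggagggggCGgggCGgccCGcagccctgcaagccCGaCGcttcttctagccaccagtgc
Wnt11: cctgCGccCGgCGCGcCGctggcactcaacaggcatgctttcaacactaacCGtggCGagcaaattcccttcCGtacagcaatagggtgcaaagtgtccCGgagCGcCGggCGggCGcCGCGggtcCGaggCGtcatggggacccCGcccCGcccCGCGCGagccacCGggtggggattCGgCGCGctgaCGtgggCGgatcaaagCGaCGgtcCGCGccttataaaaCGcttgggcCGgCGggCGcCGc
Wnt8b: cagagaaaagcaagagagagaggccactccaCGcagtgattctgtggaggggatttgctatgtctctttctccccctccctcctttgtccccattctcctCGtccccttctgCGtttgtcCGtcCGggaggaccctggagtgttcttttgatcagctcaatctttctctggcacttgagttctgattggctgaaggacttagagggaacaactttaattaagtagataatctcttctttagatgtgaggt

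These runs differ widely in CpG. Wnt11 holds 37 CpGs, an observed over expected ratio of 1.18, and Wif1 holds 21, a ratio of 0.858. Fzd7 holds 17 (0.649), Lef1 11 (0.400), Wnt8b 5 (0.342) and Dkk1 6 (0.260). The members called lower thus include both a CpG-rich and a CpG-poor run. Over the RefSeq promoters of 250 bases before to 50 after the start, found for 32 of the 48 members, the median CpG ratio was 0.754 and the median GC content 66.8%. Over 10269 matched promoters they were 0.644 and 58.3%. The wild-type level correlated with the CpG ratio at a Pearson r of 0.476 and a Spearman rho of 0.520 across all matched promoters. Across the 32 members r was -0.19 and rho -0.0726. Both are descriptions across promoters that share arrays and base composition. The letters CTTTGA of the Lef and Tcf motif were searched on both strands in every RefSeq promoter listed for a gene. At least 1 listed promoter held them at 6 of the 32 members (18.8%) and at 16.2% of all matched genes. The 6 were Dkk1, Fzd1, Lef1, Ror1, Wnt5b and Wnt11. Of these, Lef1 has 4 listed promoters, Wnt5b 3 and Wnt11 2, and the Lef1 run shown above holds 0 matches. A match is not a binding site.

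**Figure D1:**
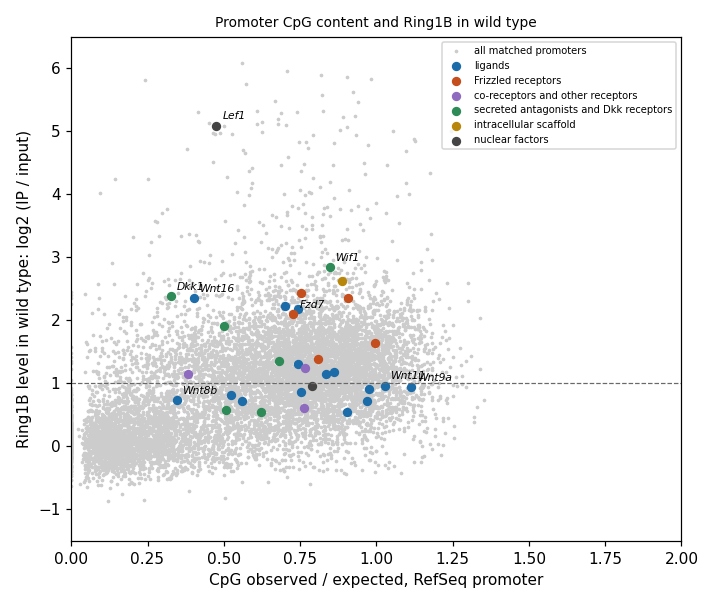
CpG observed over expected ratio of the RefSeq promoter (horizontal) and Ring1B level in wild type, as log2 IP over input (vertical), for 10269 matched promoters (grey) and 32 members (coloured by class), with the cut-off for bound as a dashed line. Lef1 and Dkk1 stand high at a low CpG ratio, while Wnt11 and Wnt9a stand just below 1 at the highest ratios among the members.

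Over the 48 members the median level was 1.28 for wild type and 1.34 for Phc2 L307R, against 0.90 and 0.80 over all promoters. In wild type 30 of 48 members were bound (62.5%), where 45.4% of all promoters were. In Phc2 L307R 30 of 48 were bound too, where 39.3% of all promoters were. Of these, 25 were bound in both genotypes, 5 in wild type only and 5 in Phc2 L307R only. At or above a level of 2 stood 15 members in wild type and 13 in Phc2 L307R, where 8.22% and 7.49% of all promoters did. At or above 3 stood Lef1 and Lgr5 in wild type, joined by Fzd7 in Phc2 L307R, where 1.58% and 1.44% of all promoters did. A level taken at the highest window can rise with the number of probes tiled, and these shares were not matched for it. With the mean over all probes, 11 members were bound in wild type and 6 in Phc2 L307R, where 4.71% and 3.98% of all promoters were.

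Of the 35 members bound in either genotype, 2 were called lower (Wif1 and Dkk1) and 2 higher (Fzd7 and Wnt11), or 5.71% each. Over all promoters bound in either genotype the shares were 3.01% lower and 1.64% higher. The median difference was -0.18 over the members, with 29 below 0 (60.4%, where 54.5% of all promoters were), and -0.05 over all promoters. Of the 35 bound members 19 lay below 0, where 61.9% of all bound promoters did. The balance of calls over all promoters moved with the processing. It was 271 lower and 148 higher in the main values, 732 and 52 in the value tables, 253 and 11 after normexp background correction and 423 and 100 with arrays scaled to the same spread.

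**Figure D2:**
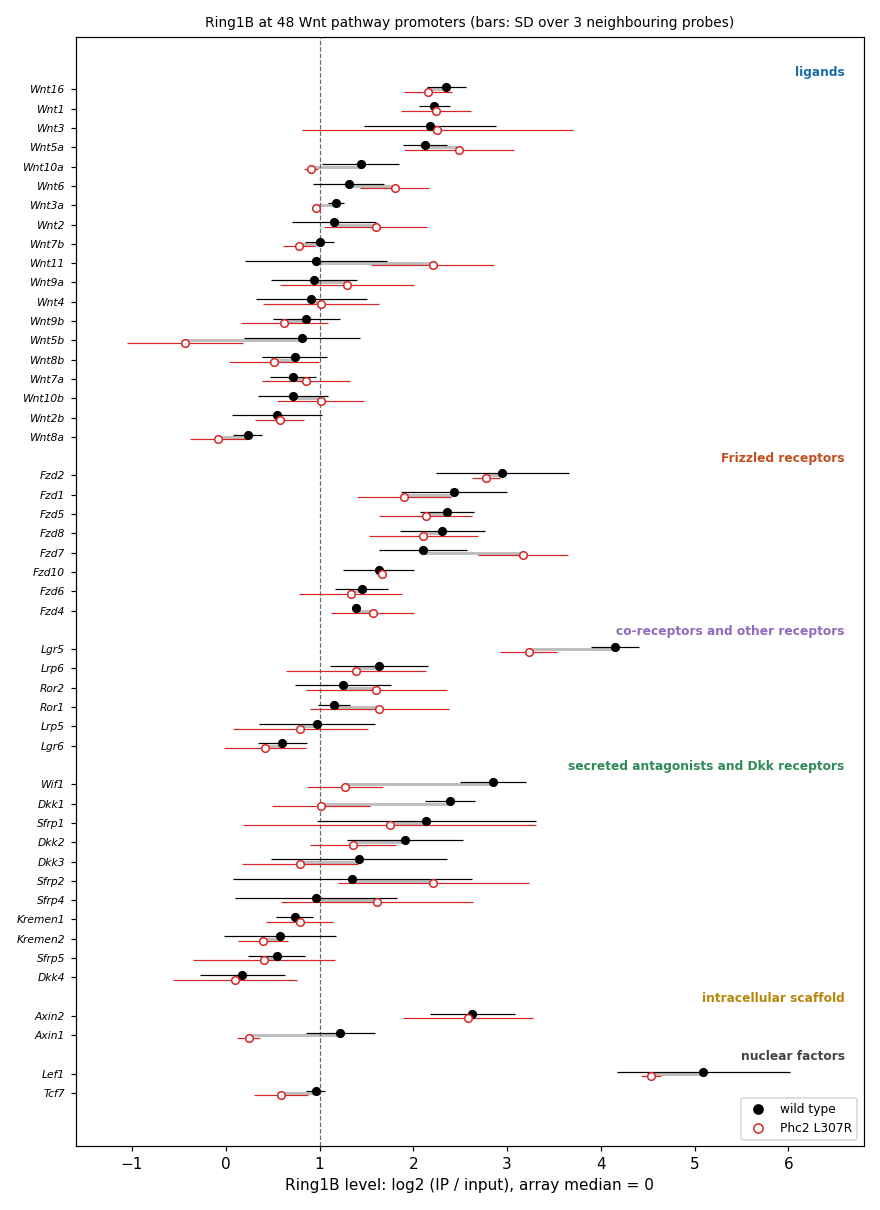
Ring1B level of each of the 48 promoters, as log2 IP over input with the array median at 0, in wild type (black) and Phc2 L307R (open red); bars are the SD over 3 neighbouring probes and the dashed line is the cut-off for bound. All 8 Frizzled promoters lie at or above 1 in both genotypes, and Wif1 and Dkk1 have the longest links to the left among bound members.

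The 19 ligand genes had median levels of 0.96 (wild type) and 1.01 (Phc2 L307R), against 0.90 and 0.80 over all promoters. Bound were 9 (47.4%) and 10 (52.6%), where 45.4% and 39.3% of all promoters were. The wild-type share thus lay near that of all promoters. In the value tables the medians were 1.42 and 1.01, with 15 and 11 bound, where 45.1% and 39.7% of all promoters were. There the median difference turned from 0.03 to -0.33, with 16 of 19 below 0, where 56.1% of all promoters were. Wnt16 stood highest in wild type at 2.35 ± 0.21, with 2.16 ± 0.26 in Phc2 L307R. Wnt1, the ligand that sets up the midbrain-hindbrain boundary, stood at 2.22 ± 0.16 and 2.24 ± 0.37. Wnt3, needed for gastrulation, stood at 2.18 ± 0.70 and 2.26 ± 1.45. Wnt5a, a non-canonical ligand of limb outgrowth, stood at 2.12 ± 0.23 and 2.49 ± 0.59. These 4 ligand promoters were above 2 in both genotypes, and none met the size rule. In the value tables Wnt16, Wnt1 and Wnt3 did meet it, at -1.41, -1.62 and -1.51, whereas Wnt5a stood at -0.07.

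The other ligand genes lay at or below 1.44 in wild type. Wnt10a went from 1.44 to 0.91, Wnt3a from 1.17 to 0.97 and Wnt7b from 1.00 to 0.78, and these 3 were bound in wild type only; in the value tables Wnt7b was bound in both (1.32 and 1.01). Wnt6 stood at 1.31 and 1.80, and Wnt2 at 1.15 and 1.60, bound in both. Bound in Phc2 L307R only were Wnt11, Wnt9a (0.94 and 1.30), Wnt4 (0.91 and 1.02) and Wnt10b (0.72 and 1.01). None of these 4 was bound in Phc2 L307R only in the value tables, where their wild-type levels were 2.70, 1.25, 1.70 and 1.13. Wnt9b, Wnt5b, Wnt8b, Wnt7a, Wnt2b and Wnt8a were unbound in both, though Wnt9b (1.42) and Wnt8b (1.055) were bound in the wild-type value tables. Wnt8a, a ligand of the early embryo, was the lowest ligand in wild type at 0.23 ± 0.16, with -0.08 ± 0.30 in Phc2 L307R. Wnt5b had the level 0.82 ± 0.62 in wild type and -0.44 ± 0.61 in Phc2 L307R, a difference of -1.25 ± 0.35 outside the call since neither level reached 1. In the value tables its difference was 0.08. The promoter named for Wnt5b with Fbxl14, outside the choice, stood at -0.35 in wild type and -0.41 in Phc2 L307R.

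Wnt11, a non-canonical ligand of heart and kidney development, was the ligand called higher. Its 3 probes (chromosome 7, 98711605 to 98711954) read 1.26, 0.11 and 1.53 in wild type, against 1.73, 2.96 and 1.93 in Phc2 L307R. The means were 0.96 ± 0.76 and 2.21 ± 0.66, a difference of 1.24 ± 1.40. The middle probe has a scanner ratio of exactly 0 on the wild-type array, where its IP signal was not well above background, and without such probes the difference was 0.64. It was -0.49 in the value tables, -0.18 after normexp, -0.16 with only probes well above background and -0.03 over all 46 probes. The call at Wnt11 thus changed sign with the processing.

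Wnt genes often lie in neighbouring pairs, and 4 pairs had tiled regions within 50 kb. Wnt1 and Wnt10b on chromosome 15, with windows 14.1 kb apart, had wild-type levels of 2.22 and 0.72. The promoter named for both genes, outside the choice, stood at 0.97 in wild type and 0.86 in Phc2 L307R. Wnt3 and Wnt9b on chromosome 11, 24.5 kb apart, stood at 2.18 and 0.86. A bound and an unbound promoter thus lay side by side in both pairs in the scanner values, but Wnt10b (1.13) and Wnt9b (1.42) were also bound in the wild-type value tables, beside Wnt1 at 3.87 and Wnt3 at 3.77. Wnt3a and Wnt9a on chromosome 11, 17.8 kb apart, differed by -0.21 and 0.35 between genotypes. Wnt10a and Wnt6 on chromosome 1, 21.7 kb apart, differed by -0.53 and 0.49. None of these 4 met the size rule. In the value tables Wnt10a and Wnt6 went the same way (-0.24 and -0.33), and Wnt3a and Wnt9a stood at -0.73 and 0.05.

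Frizzled genes encode the receptors that bind the ligands, and all 8 promoters were bound in both genotypes, with median levels of 2.21 and 2.00. Of all promoters 45.4% and 39.3% were bound. Fzd2 stood highest in wild type at 2.95 ± 0.71, with 2.77 ± 0.15 in Phc2 L307R. Fzd1 stood at 2.44 ± 0.56 and 1.90 ± 0.50. Fzd5 stood at 2.36 ± 0.29 and 2.13 ± 0.50, and Fzd8 at 2.31 ± 0.45 and 2.11 ± 0.58. Fzd10 (1.63 and 1.67), Fzd6 (1.45 and 1.33) and Fzd4 (1.39 and 1.57) followed, wild type first. Fzd4, the receptor of retinal vessel growth, was the lowest of the class in wild type. Apart from Fzd7 none met the size rule, and in the value tables none of the 8 did.

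Fzd7, a receptor with roles in embryonic and intestinal stem cells, was called higher. Its probes (chromosome 1, 59428072 to 59428392) read 2.25, 1.58 and 2.48 in wild type, against 3.39, 3.51 and 2.62 in Phc2 L307R. The level went from 2.10 ± 0.47 to 3.17 ± 0.48, a difference of 1.07 ± 0.89. The first 2 probes carry most of it. It was 0.76 in the value tables, 0.39 after normexp and 0.45 with only probes well above background, short of the size rule each time. Over all 39 probes it was 0.19, and it turned to -0.17 where the window was chosen on wild type alone.

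Among the other receptors, Lgr5 had the highest level. Lgr5 is a receptor of R-spondins and a marker of intestinal stem cells. Its probes (chromosome 10, 114989883 to 114990258) read 4.06, 4.44 and 3.96 in wild type, against 3.37, 3.44 and 2.88 in Phc2 L307R. These are neighbouring probes on 1 array per genotype and not repeats. Its breadth was 36.4% in wild type and 38.6% in Phc2 L307R, and 63.6% and 38.6% in the value tables. The level of 4.15 ± 0.25 in wild type ranked 111 of 17649, and in Phc2 L307R it was 3.23 ± 0.30. The difference of -0.92 ± 0.20 lay just short of the size rule, and it was -2.15 in the value tables, where it met the rule. Its relative Lgr6 was the lowest of the class, at 0.60 ± 0.26 and 0.42 ± 0.44.

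The co-receptors Lrp6 and Lrp5 had wild-type levels of 1.63 and 0.97, and levels of 1.39 and 0.79 with altered Phc2. Ror2 and Ror1, receptor kinases that respond to Wnt5a, had wild-type levels of 1.25 and 1.15, and levels of 1.61 and 1.64 with altered Phc2. Their differences were -0.03 and 0.14 in the value tables, and -0.05 and -0.26 over all probes of the scanner values. None of these 4 met the size rule. Of the 6 receptors in this class, 4 were bound in each genotype.

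Both members called lower were secreted antagonists. Wif1 had the lowest difference of all 48. Its probes (chromosome 10, 120438731 to 120439089) read 2.62, 3.26 and 2.67 in wild type, against 0.97, 1.74 and 1.11 in Phc2 L307R. The level fell from 2.85 ± 0.35 to 1.27 ± 0.41, a difference of -1.57 ± 0.06, or 2.98-fold. It was -2.25 in the value tables. Along the 8114 bp tiled, 37 of 38 probes were lower in Phc2 L307R, and their mean went from 1.86 to 0.71. Probes at or above 1 numbered 35 in wild type and 13 in Phc2 L307R. The all-probe difference of -1.15 ± 0.54 (SD over 38 probes) ranked 5 from the lowest of all promoters. The step was not even: in the window highest in Phc2 L307R the difference was -0.31, short of the rule.

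Dkk1, which blocks Lrp co-receptors and is needed for head formation, was the other. Its probes (chromosome 19, 30616301 to 30616685) read 2.51, 2.08 and 2.58 in wild type, against 1.62, 0.66 and 0.78 in Phc2 L307R. The level fell from 2.39 ± 0.27 to 1.02 ± 0.52, a difference of -1.37 ± 0.46, or 2.59-fold. It was -2.43 in the value tables. Of 42 probes, 36 were lower in Phc2 L307R, and those at or above 1 numbered 21 in wild type and 2 in Phc2 L307R. The call was lost in the window highest in Phc2 L307R (-0.87) and over all probes (-0.65). All 3 window probes at Wif1 and at Dkk1 had input and IP well above background in both genotypes.

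**Figure D3:**
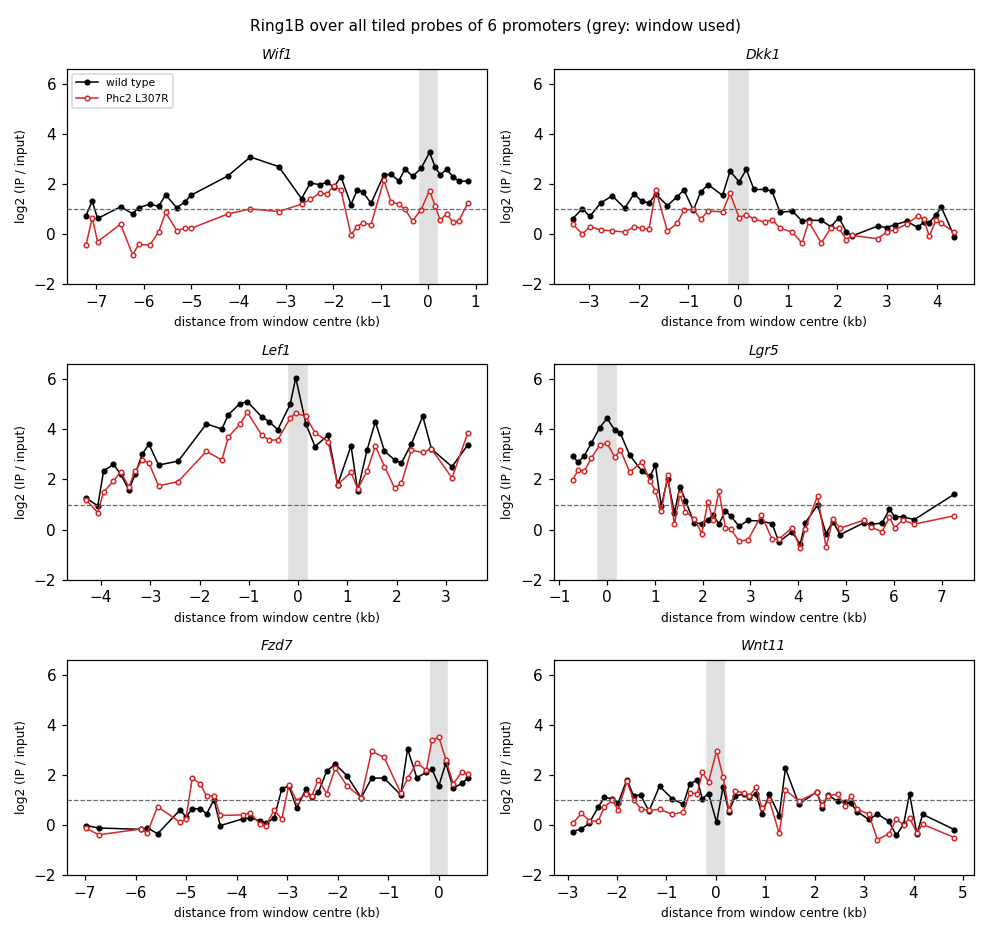
Log2 IP over input of every tiled probe (vertical) by distance from the window centre in kb (horizontal) at 6 promoters, in wild type (black) and Phc2 L307R (open red), with the window shaded and the cut-off for bound dashed. At Wif1 37 of 38 probes are lower in Phc2 L307R, whereas at Wnt11 the genotypes part mainly at the middle probe of the window.

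The other antagonists did not meet the size rule. Sfrp1 stood at 2.14 ± 1.17 and 1.75 ± 1.56, and Dkk2 at 1.91 ± 0.62 and 1.35 ± 0.46. Dkk3 stood at 1.42 ± 0.94 and 0.79 ± 0.62, bound in wild type only, though unbound there in the value tables (0.93). Sfrp4, with 13 probes, stood at 0.96 ± 0.86 and 1.62 ± 1.02, bound in Phc2 L307R only. The promoter named for Epdr2 with Sfrp4, outside the choice, stood at 0.94 in wild type and 1.25 in Phc2 L307R. Sfrp2 went from 1.35 ± 1.27 to 2.21 ± 1.02, a difference of 0.86 ± 2.28. One of its wild-type probes also has a ratio of exactly 0, and without such probes the difference was -0.57; in the value tables it was -2.47. Kremen1, Kremen2, Sfrp5 and Dkk4 were unbound in both genotypes, with Dkk4 lowest of all members in wild type at 0.18 ± 0.45. Over the 11 promoters the median level was 1.35 in wild type and 1.02 in Phc2 L307R. In each genotype 6 were bound (54.5%), where 45.4% and 39.3% of all promoters were. In the value tables the medians were 0.94 and 1.02, with a median difference of -0.27.

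Of the scaffold genes, Axin2, a feedback target of the pathway, stood at 2.63 ± 0.45 and 2.58 ± 0.69. Axin1 stood at 1.22 ± 0.37 in wild type and 0.24 ± 0.12 in Phc2 L307R. Its difference of -0.98 ± 0.31 lay nearest the size rule from outside, and it was -0.57 in the value tables.

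Lef1, which carries beta-catenin to its targets, had the highest level of all members. Its probes (chromosome 3, 131098306 to 131098682) read 4.99, 6.06 and 4.22 in wild type, against 4.44, 4.65 and 4.52 in Phc2 L307R. The readings overlap, and the levels were 5.09 ± 0.92, rank 38 of all promoters, and 4.54 ± 0.11. The difference was -0.56 ± 0.85, and -1.92 in the value tables, where it met the size rule. Signal covered the promoter, with 36 of 37 probes at or above 1 in both genotypes, and 30 of 37 were lower in Phc2 L307R. Tcf7, a relative of Lef1, was unbound in the scanner values at 0.96 ± 0.10 and 0.59 ± 0.29. In the value tables Tcf7 was bound in wild type at 1.62, with 0.59 in Phc2 L307R, and its difference of -1.03 met the size rule.

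Breadth also differed between the classes. Frizzled promoters had a median breadth of 52.0% (wild type) and 49.5% (Phc2 L307R), ligand promoters 10.3% and 11.8%, and antagonists 12.8% and 7.69%, where the median over all promoters was 7.50% and 6.67%. In the value tables the ligand promoters stood at 30.8% and 12.5%, the Frizzled promoters at 55.0% and 49.5% and the antagonists at 15.4% and 7.69%, so the ligand class went the other way there. Breadth was lower in Phc2 L307R at 22 of 48 members, equal at 14 and higher at 12, where 35.9% of all promoters were lower. The median change in breadth was 0 over the members and 0 over all promoters. Wif1 went from 92.1% to 34.2%, Dkk1 from 21 of 42 probes to 2 and Sfrp2 from 52.5% to 30.0%. In the other direction, Fzd10 went from 18.6% to 46.5%, Sfrp4 from 7.69% to 30.8% and Wnt2 from 21.6% to 37.8%. In the value tables Fzd10 had 46.5% in both genotypes, Sfrp4 went from 15.4% to 30.8%, and Wnt2 went the opposite way, from 54.1% to 37.8%.

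**Figure D4:**
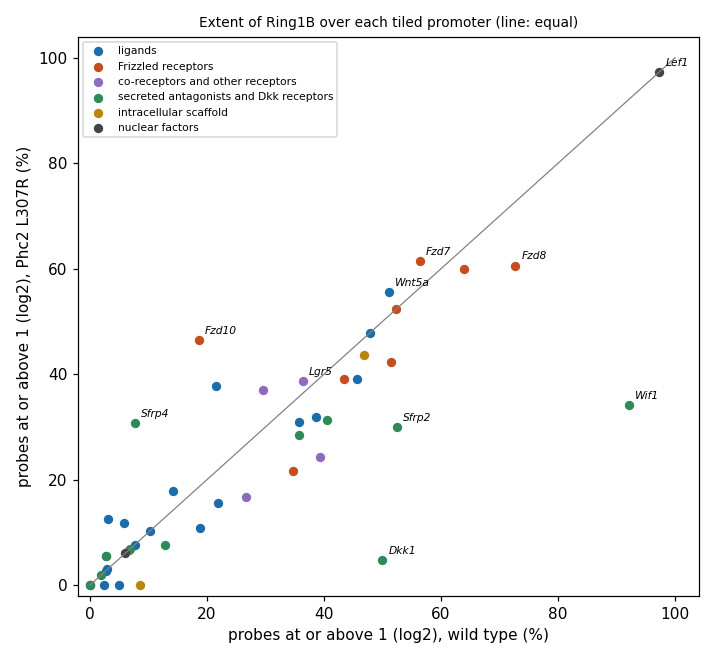
Share of the tiled probes at or above 1 in wild type (horizontal, %) and Phc2 L307R (vertical, %) for the 48 promoters, coloured by class, with the line of equal shares. Wif1 and Dkk1 lie farthest below the line, Fzd10 and Sfrp4 farthest above it, and Lef1 stands at 97.3% in both.

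With value-table ratios, 37 members were bound in wild type and 31 in Phc2 L307R, where 45.1% and 39.7% of all promoters were. There, 10 of the 38 members bound in either genotype were lower (26.3%, where 8.24% of all bound promoters were) and 0 were higher (0.585%). The 10 were Dkk1, Lef1, Lgr5, Sfrp1, Sfrp2, Tcf7, Wif1, Wnt1, Wnt16 and Wnt3. The share called lower varied with level, taken here as the mean of both genotypes in the scanner values. Over all bound promoters it was 5.94% below 1, 4.32% from 1 to 2, 17.6% from 2 to 3 and 80.2% from 3. Over 8, 17, 11 and 2 bound members it was 12.5%, 17.65%, 36.4% and 100%, the last 2 being Lef1 and Lgr5. The share of 8.24% is thus not matched for level. The median difference was -0.33 over the members and -0.06 over all promoters. The difference had the same sign in both sets at 33 of 48 members. At 12 it was above 0 in the scanner values and below 0 in the value tables, and at 3 the reverse. Wif1 and Dkk1 met the rule in both sets, as did 1.14% of all bound promoters, and no member was higher in both. In the same windows the value tables held more wild-type signal than the scanner files at 36 of 48 members, by a median of 0.33 and by up to 3.34 at Sfrp2. Over all promoters the wild-type median in those windows was 0.84 in the value tables and 0.90 in the scanner values. Which wild-type set reflects the cells better was not tested.

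**Figure D5:**
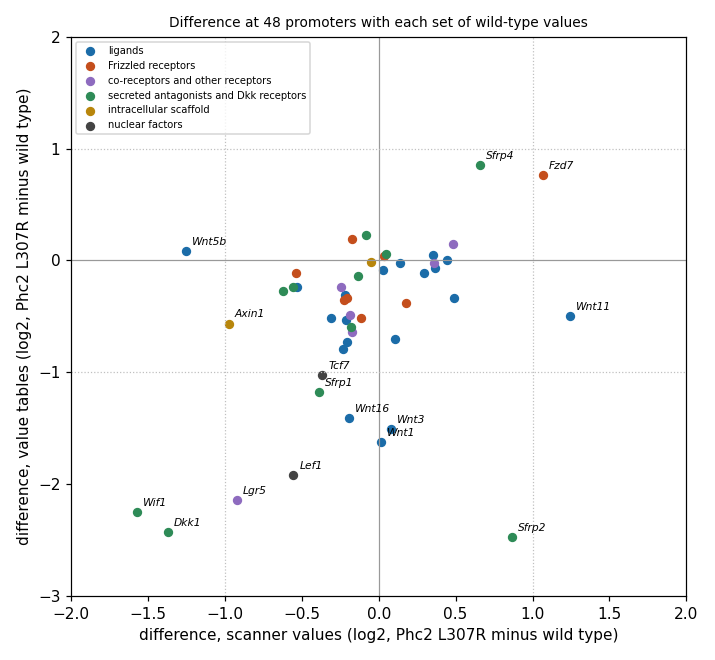
Difference between Phc2 L307R and wild type (log2) with wild type from the scanner values (horizontal) and from the value tables (vertical) for the 48 promoters, coloured by class; dotted lines mark a 2-fold difference. Wif1 and Dkk1 lie past the line in both sets. Sfrp2 and Wnt11 are among 12 members above 0 in the scanner values and below 0 in the value tables, while 3 go the reverse way.

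Of 69 other names listed for the pathway, 54 had a promoter on the arrays, with median levels of 1.46 and 1.36. In wild type 39 (72.2%) and in Phc2 L307R 34 (63.0%) were bound, where 45.4% and 39.3% of all promoters were. Tle1, a co-repressor of Tcf factors, had the highest wild-type level at 2.98, with 2.71 in Phc2 L307R, followed in wild type by the cyclin gene Ccnd1 at 2.86 and 2.47 and Tle4 at 2.56 and 2.95. By the size rule 3 were lower: the antagonist gene Cer1 (1.14 to -0.10), the nuclear factor gene Tcf7l2 (2.47 to 1.42) and the planar polarity gene Vangl2 (1.49 to 0.12). Wisp1, a secreted target of the pathway, was higher (1.43 to 2.50). Of the 42 bound in either genotype, 7.14% were lower and 2.38% higher, where 3.01% and 1.64% of all bound promoters were. None of the 4 called met the rule in the value tables. There 5 others were lower, 11.4% of those bound in either genotype, where 8.24% of all bound promoters were, and 0 were higher.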

How the data were processed

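Ring1B ChIP-on-chip was analysed in wild-type and Phc2 L307R fibroblasts, and the labels gave the groups. Spot intensity in the deposited files comes from Agilent Feature Extraction 10.7.3.1, per the file headers, as does the log10 ratio of Cy5 to Cy3. Set against these ratios, the value tables deposited beside them are log10 as well; their column medians were -0.056 and -0.0615 for wild type and -0.0342 and -0.0393 for Phc2 L307R, and how the wild-type columns were made is unknown. Ratios were turned to log2 and centred on each array's median, without control and flagged spots. Precision is limited by the number of arrays.

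The members and lists were chosen with earlier results of these data known. Named in full are members at or above 3, those called, the extremes of level and difference, those nearest a threshold and neighbouring Wnt pairs; other pathway genes are named if called or among the 3 highest. The script that makes the calls was tested on simulated data with probe noise only, which says nothing of differences between cultures. Alternatives were the value tables, normexp (offset 50), loess, scaling to the same spread, a filter on dim probes, other windows, the mean over all probes, a cut-off of 1.5, a 1.5-fold size rule and single designs; value tables in the scanner window and leaving out ratios of exactly 0 were added after seeing the data. Python 3.11.15, numpy 2.4.6, pandas 2.3.3, matplotlib 3.10.9, R 4.3.3 and limma 3.58.1 were used.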

Additional observations from a re-analysis of the deposited data

How the results depend on the processing

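No paired analysis was possible because the numbers in the labels name array designs with different probes. Of 30 members bound in wild type, the count was 11 with the mean over all probes and 18 at a cut-off of 1.5; of 30 in Phc2 L307R, 15 after normexp and 6 with the mean over all probes. Single designs, which hold other members, gave 14 to 16 in each genotype. The 2 lower calls became 10 in the value tables, 9 in the value tables read in the scanner window, 4 with the same spread, 5 at 1.5-fold, 1 with the mean over all probes, 0 to 2 on single designs and 0 where the window was highest in Phc2 L307R. The 2 higher calls became 0 in the value tables (also in the scanner window), after normexp, with only probes well above background, with 5-probe windows, with the window highest in wild type and with the mean over all probes. They became 1 with the same spread and 1 without ratios of 0, and 0 to 2 on single designs. The wild-type median of 1.28 was 1.70 in the value tables and 0.47 over all probes, and the Phc2 L307R median of 1.34 was 0.71 after normexp and 0.48 over all probes. The median difference of -0.18 was 0.12 with the window highest in Phc2 L307R. Fzd7 reversed to -0.17 with the window highest in wild type. Wnt11 reversed to -0.49 in the value tables (in either window), -0.18 after normexp, -0.16 with only probes well above background and -0.0322 over all probes. Choosing the window in a single genotype favours that genotype by construction; the cause of the other changes was not tested. Wif1 lay between -2.25 and -0.31 and Dkk1 between -2.43 and -0.65, below 0 in every alternative run. The cut-off of 1.5, the 1.5-fold rule and single designs cannot change a difference, so those runs say nothing on this. Every run also used the same Phc2 L307R arrays.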
